A study of Homo sapiens with 6 samples.

Results

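The C/EBP and PAR bZIP genes were examined in BT-549 cells, a human triple-negative breast cancer line, in which WDR5 can be silenced by doxycycline (DOX). The 8 genes are CEBPA, CEBPB, CEBPD, CEBPG, NFIL3, DBP, TEF and HLF. They were picked by name, as a family of DNA-binding proteins, from the 19792 genes of the deposited table. Earlier results of these data were known when they were picked, so their counts give no independent support. The cells of all 6 cultures carried the same WDR5 shRNA in the pLKO-tet-puro vector and had been selected in puromycin. RNA-seq was performed on 3 cultures given vehicle (0.1% DMSO) and 3 given 500 ng/ml DOX, each kept so for a week. Libraries of a control shRNA with DOX were not analysed here, so DOX itself and WDR5 silencing cannot be told apart. The values of single cultures were also not analysed here. The spread between cultures is therefore seen only in the standard error of each gene. The RNA came from triplicate cultures, and the general statement in the methods is that replicates were independent biological ones, while the labels do not say how these triplicates were raised. The p-values set each change against its standard error, which rests on these cultures and was moderated across genes by DESeq2.

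WDR5, the target of the shRNA, was at 13.6% of vehicle with DOX (95% interval 12.2% to 15.2%). Library depth is unknown, and the mean normalized counts of all genes sum to 26551206. The mesenchymal markers of the line were abundant and its epithelial markers were mixed. VIM, SPARC, FN1, ZEB1 and CDH2 had 1019 to 22183 normalized counts per kb of transcript, whereas the epithelial CDH1 had 12.4. The epithelial keratins KRT8 and KRT18 had 32.1 and 308 per kb, and KRT18 rose to 205% of vehicle. EPCAM, ESR1 and PGR each had a mean normalized count of 1.30 or less. ERBB2, by contrast, had 268 normalized counts per kb and rose to 137% of vehicle (95% interval 124% to 151%). Of the markers of blood and endothelial cells, PTPRC had 8.34 normalized counts per kb and was higher with DOX (adjusted p = 0.00823, DESeq2 Wald test), and PECAM1 had 0.420. Of the 14 markers, 11 were tested, with 2 lower (CDH1 and ZEB1) and 7 higher with DOX. Of all 15954 genes tested, 22.5% were lower and 24.3% were higher past an adjusted p of 0.05 (Wald test). The part of these markers in the results below was not tested.

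The bZIP proteins bind DNA as dimers through a basic region followed by a leucine zipper. C/EBPα, C/EBPβ and C/EBPδ activate genes of differentiation, fat metabolism, the acute phase response and inflammation, and C/EBPβ was first known as nuclear factor of IL-6. C/EBPγ has no transactivation domain of its own and works by pairing with its relatives and with ATF4. The PAR proteins DBP, TEF and HLF share a proline- and acidic-residue-rich stretch and activate genes with a D-box, many of them under circadian control, while NFIL3 (E4BP4) represses through the same box.

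Of the 8 genes, 6 fell with DOX past the threshold (adjusted p below 0.05), 1 was higher and 1 did not pass (Wald test from the DESeq2 estimate, Benjamini-Hochberg adjustment over 15954 genes). In the whole table, 22.5% of the tested genes were lower and 24.3% were higher by the same rule. All 4 C/EBP genes and NFIL3 fell. Of the PAR genes, HLF fell, TEF rose and DBP did not pass. The median log2 fold change of the 8 genes was -0.76, and that of all tested genes was -0.01. By mean normalized count all 8 genes were above 10, so none was lost to a filter on low values. Fewer cells with a transcript and less of it per cell cannot be told apart in bulk RNA.

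The 8 genes differed widely in level. Per kb of transcript, the mean normalized count over the 6 libraries was 2807 for CEBPD, 2207 for NFIL3, 2052 for CEBPB and 1321 for CEBPG. These 4 genes lay between the 91.2 and 94.3 percentiles of all genes in mean normalized count. CEBPA was far lower, at 110 normalized counts per kb. The PAR genes were lower still, with 40.3 per kb for TEF, 37.6 for DBP and 9.14 for HLF. No spread over cultures can be given for these levels, so the order of near neighbours such as NFIL3 and CEBPB, or TEF and DBP, is not tested. The deposited mean and fold change give a level for each group of 3 cultures. By these derived levels, CEBPD, CEBPB, CEBPG and CEBPA made up 42.3%, 33.5%, 22.3% and 1.83% of the summed C/EBP level per kb in vehicle. With DOX, the shares were 48.3%, 31.2%, 18.9% and 1.60%, and the sum went from 7689 to 4891 normalized counts per kb, which is 63.6% of vehicle. The C/EBP pool was thus smaller with DOX, and CEBPD held a larger share of it. The summed level of the PAR genes was 87.0 normalized counts per kb in vehicle and 87.1 with DOX. The share of TEF in it went from 39.8% to 52.8% and that of HLF from 13.2% to 7.80%. No error was computed for the PAR sum, and the intervals of its members, given below, are wide. Whether the sum changed was not tested.

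**Figure D1:**
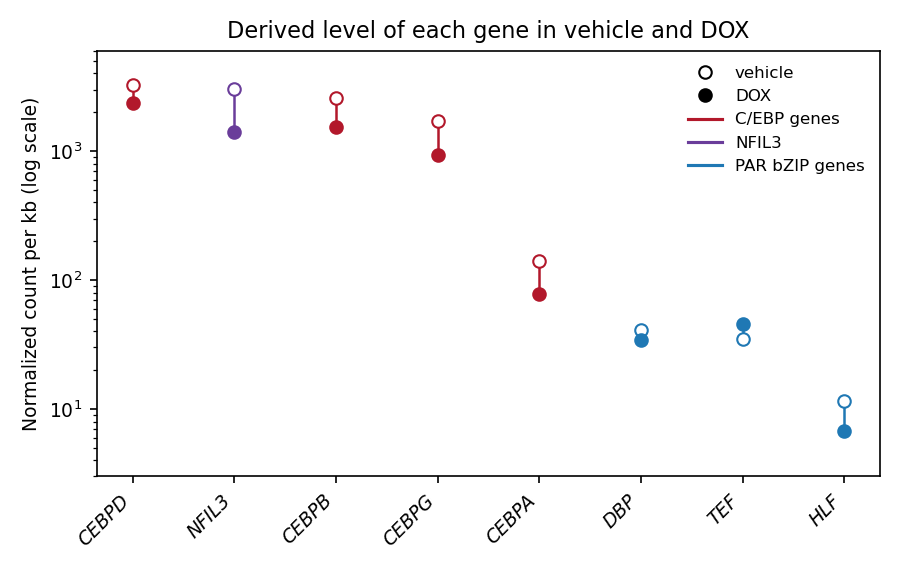
Level of each gene in vehicle (open circles) and DOX (filled circles), in normalized counts per kb of transcript on a log axis, derived from the mean over 6 libraries and the fold change, with no error available for a level. CEBPD, NFIL3, CEBPB and CEBPG sit between 926 and 3253, CEBPA between 78.4 and 141, and the PAR genes at 46.0 or less, with TEF the only gene whose DOX level is above its vehicle level.

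NFIL3 showed the largest change of the 8 genes. NFIL3 represses D-box genes, protects some cells from apoptosis and is needed for natural killer cell development. Its derived level went from 6182 normalized counts in vehicle to 2890 with DOX. The log2 fold change was -1.10 (standard error 0.05, adjusted p = 1.4e-90, DESeq2 Wald test), which left 46.8% of vehicle (95% interval 43.5% to 50.3%). Its estimate was the 395th lowest among the 13548 genes whose mean was 10 or more normalized counts. Of the 1255 genes with a mean between 3000 and 6000, 1.35% had an estimate as low. NFIL3 was the only 1 of the 8 genes with a change of more than 1 on the log2 scale, and its interval, from -1.20 to -0.99, reached just above -1.

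Among the C/EBP genes, the estimated fall was largest for CEBPG. Its derived level went from 6399 to 3455 normalized counts, which left 54.0% of vehicle (95% interval 50.1% to 58.2%; log2 fold change -0.89, standard error 0.06, adjusted p = 1.1e-55, DESeq2). CEBPA, a factor of myeloid and fat cell differentiation that arrests growth, went from 367 to 204 normalized counts. It was left at 55.6% (47.3% to 65.4%, adjusted p = 1.5e-11, DESeq2), with a standard error of 0.12 that is wider than for its more abundant relatives. CEBPB, the mediator of IL-6 and IL-1 responses, went from 4744 to 2804 normalized counts and was left at 59.1% (54.5% to 64.1%, adjusted p = 7.0e-35, DESeq2). CEBPD, an early gene of the acute phase response, had the smallest fall of the 4. It went from 4073 to 2957 normalized counts, and 72.6% remained (66.7% to 79.0%, adjusted p = 1.1e-12, DESeq2). The interval of CEBPD overlapped with that of none of the other C/EBP genes, whereas those of CEBPG, CEBPA and CEBPB overlapped each other. Calls are frequent at these high counts. Of the 1255 genes with a mean between 3000 and 6000, 27.3% were lower and 42.2% were higher past the threshold, and 3.19% had an estimate as low as that of CEBPB.

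The PAR genes did not share a direction. TEF, first known as an activator of the thyrotropin gene, rose from 152 to 202 normalized counts. It thus reached 133% of vehicle (95% interval 109% to 163%; log2 fold change 0.41, standard error 0.15, adjusted p = 0.0150, DESeq2 Wald test). HLF, known as the fusion partner of TCF3 in leukemia, went from 65.7 to 38.9 normalized counts and was left at 59.2% (41.6% to 84.0%; adjusted p = 0.00893, DESeq2). DBP, a clock output gene, had 88.8 normalized counts in vehicle and 74.5 with DOX. Its log2 fold change was -0.25, with an interval of 60.7% to 116% of vehicle (adjusted p = 0.410, DESeq2), so a fall of the size of CEBPD lies within its interval. Of the 1889 genes with a mean between 50 and 200, 24.2% were lower and 16.3% were higher past the threshold. Under the more cautious Benjamini-Yekutieli adjustment, HLF and TEF no longer passed (adjusted p = 0.0915 and 0.154), whereas NFIL3 and the 4 C/EBP genes did.

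**Figure D2:**
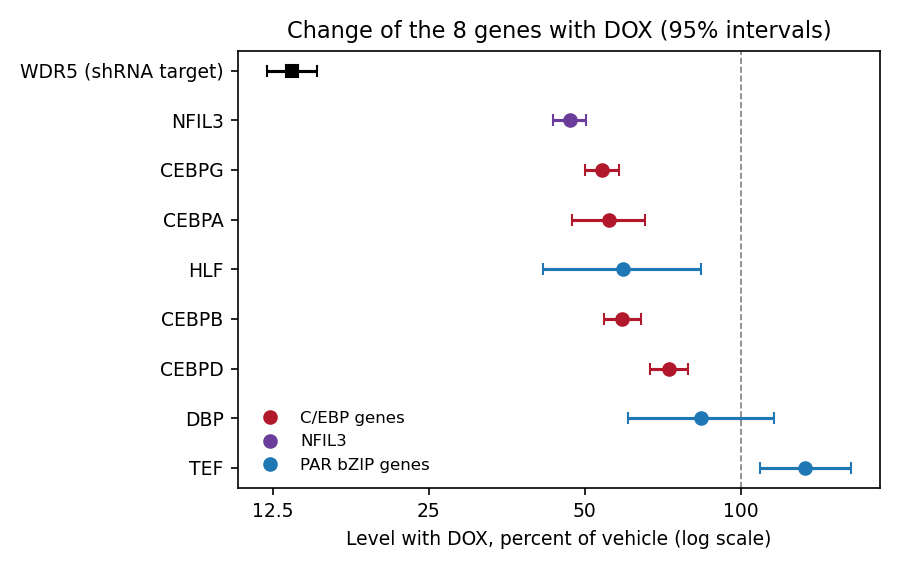
Level with DOX as percent of vehicle (log axis) for the 8 genes and WDR5, with 95% intervals as bars, and a dashed line at 100%. The intervals of NFIL3, the 4 C/EBP genes and HLF lie below 100%, that of DBP (60.7% to 116%) crosses it, and that of TEF (109% to 163%) lies above it.

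The standard errors followed the counts. The intervals of NFIL3, CEBPG, CEBPB and CEBPD spanned 1.16-fold to 1.18-fold from end to end, and those of TEF, DBP and HLF spanned 1.5-fold, 1.91-fold and 2.02-fold. Under a negative binomial model, counting of reads accounted for 10.0% to 12.3% of the squared standard error of NFIL3, CEBPG, CEBPB and CEBPD. It accounted for 36.9% in CEBPA, 35.6% in TEF, 30.2% in DBP and 42.6% in HLF. What was left corresponds to a coefficient of variation of 4.26% to 4.99% for the first 4 genes, 8.07% for CEBPA, 10.2% for TEF, 16.9% for DBP and 16.6% for HLF. This remainder rests on the moderated standard error, which for CEBPB (0.06) and HLF (0.26) equals the median of genes of similar mean, and not on values of single cultures. Ordered by the fold change (NFIL3, CEBPG, CEBPA, CEBPB, HLF, CEBPD, DBP, TEF), all 7 pairs of neighbours had overlapping intervals. Of all 28 pairs, 13 had separate intervals. TEF was separate from each of the other genes except DBP.

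**Figure D3:**
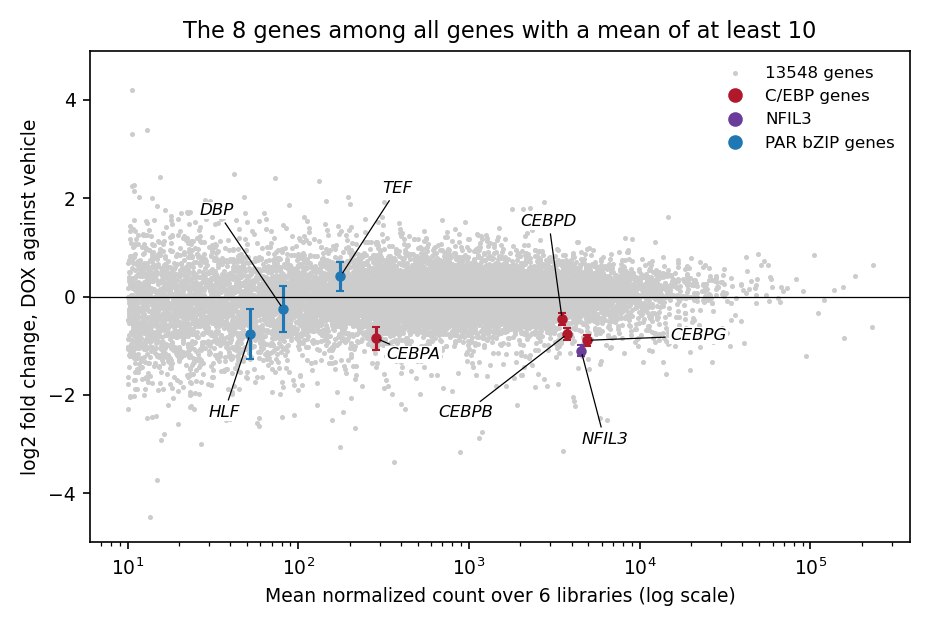
Change (log2, DOX over vehicle) of 13548 genes (grey) by mean normalized count (log axis), with the 8 genes in colour and 95% intervals as bars. NFIL3 (-1.10), CEBPG (-0.89) and CEBPB (-0.76) lie low among genes of their expression, HLF (-0.76) has the widest interval, and TEF (0.41) lies above 0.

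The genes also differ in structure. In GENCODE 44 on GRCh38, CEBPA (chromosome 19, 33299934 to 33302534), CEBPB (chromosome 20, 50190830 to 50192668) and CEBPD (chromosome 8, 47736913 to 47738164) are genes of 1 exon. CEBPG (chromosome 19, 33373685 to 33382686) and NFIL3 (chromosome 9, 91409045 to 91423832) have 2 exons in the MANE Select transcript, of which 1 is coding. DBP (chromosome 19, 48630030 to 48637379), TEF (chromosome 22, 41367333 to 41399326) and HLF (chromosome 17, 55264960 to 55325187) each have 4 exons, all coding. The 5 genes with 1 coding exon are thus the 5 with the smallest adjusted p. Whether this structure goes with a direction was not tested. Of the 627 tested genes of 1 coding exon whose mean was 10 or more, 31.1% were lower and 27.3% were higher. For the 994 genes with 4 coding exons, the shares were 28.9% and 31.3%.

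Neighbouring genes did not share one direction with the family. CEBPA and CEBPG lie 71151 bases apart on chromosome 19, and both fell. On the far side of CEBPG, 4264 bases away, PEPD rose to 130% of vehicle (95% interval 117% to 144%). SPIDR, 607 bases from CEBPD, was at 94.2% (87.3% to 102%) and did not pass, nor did PRKDC on the other side at 107% (97.0% to 118%). The nearest genes to TEF, ZC3H7B and TOB2, were at 107% and 97.9% of vehicle and did not pass. STXBP4 beside HLF rose to 163% (127% to 210%), and AUH beside NFIL3 fell to 79.5% (68.3% to 92.5%). On the other side of HLF and NFIL3, MMD (109%, 93.5% to 128%) and ROR2 (127%, 89.7% to 180%) did not pass. SLC7A10 beside CEBPA had a mean normalized count of 0.458 and was not tested. Both neighbours of DBP fell, CA11 (567 bases away) to 70.8% (58.6% to 85.6%) and RPL18 to 57.5% (53.2% to 62.1%). DBP also overlaps SPHK2 on the opposite strand over 688 bases, and SPHK2 rose to 137% (112% to 167%). The libraries were stranded, but how strand entered the counting is not given in the sources used here, so reads of DBP and SPHK2 may not be fully separated. Noncoding RNAs also overlap CEBPA (over 1235 and 662 bases), HLF (over 2150 bases) and TEF (over 107 bases) on the opposite strand. The same limit holds for these genes.

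**Figure D4:**
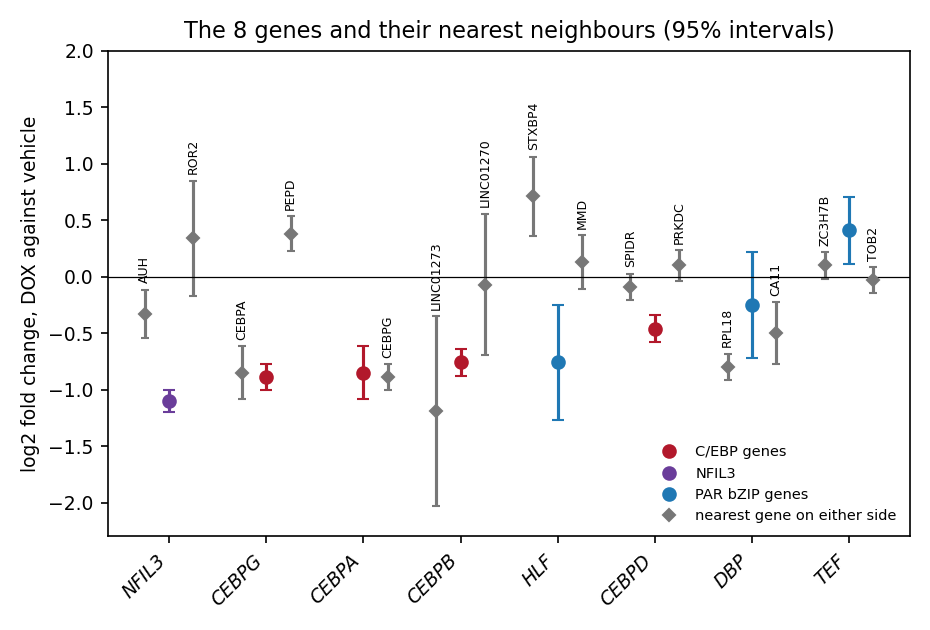
The log2 fold change of each of the 8 genes (coloured circles) and of the nearest gene of the table on either side (grey diamonds, left for lower and right for higher coordinates, where its mean was 10 or more), with 95% intervals. CEBPA and CEBPG are each other's neighbours and lie at -0.85 and -0.89, whereas PEPD and STXBP4 lie above 0 beside genes that fell.

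The RNAs named as antisense to CEBPA and CEBPB moved with them. CEBPA-AS1 was left at 30.2% of vehicle (95% interval 17.8% to 51.3%, adjusted p = 3.9e-05, DESeq2 Wald test) and CEBPB-AS1 at 47.3% (32.0% to 69.9%, adjusted p = 5.8e-04). Both are rare, with mean normalized counts of 25.1 and 43.5. CEBPB-AS1 shares 669 bases with CEBPB on the opposite strand, so its reads may not be fully separated from those of CEBPB, which is far more abundant. LINC01273, the nearest placed gene on 1 side of CEBPB, fell to 43.9% (24.4% to 78.8%) at a mean normalized count of 21.4. LINC01270 on the other side was at 95.5% (61.6% to 148%) and did not pass. CEBPZOS, which lies opposite CEBPZ, was lower at 83.9% (75.3% to 93.4%).

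The bases before the gene starts are shown for the 3 genes that fell most, NFIL3, CEBPG and CEBPA, and for TEF, the 1 gene that rose. RefSeq promoters of GRCh38.p14 were found for 7 of the genes, with 12 starts, and CEBPD was not among them. The 250 bases before each start were searched on both strands for a D-box (TTANGTAA), a C/EBP box (TTGCNNAA), an E-box (CACGTG), a CRE (TGACGTCA), an AP-1 site (TGA and TCA with 1 base between them), a TATA box (TATAAA) and a CArG box. Matches are in capitals. The window of NFIL3 (chr9:91423833-91424082, minus strand, before the MANE Select start) and that of CEBPG (chr19:33373459-33373684, plus strand, up to the first annotated exon) hold none of these letters. The window of CEBPA (chr19:33302535-33302784, minus strand) has a TATA box, and that of TEF (chr22:41381692-41381941, plus strand) has an E-box, the element that CLOCK and BMAL1 bind.
NFIL3: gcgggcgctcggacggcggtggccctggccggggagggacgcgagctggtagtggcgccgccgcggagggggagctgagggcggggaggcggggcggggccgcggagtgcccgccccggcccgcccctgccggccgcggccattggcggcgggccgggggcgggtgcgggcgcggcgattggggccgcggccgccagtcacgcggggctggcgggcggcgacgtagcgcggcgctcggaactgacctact
CEBPG: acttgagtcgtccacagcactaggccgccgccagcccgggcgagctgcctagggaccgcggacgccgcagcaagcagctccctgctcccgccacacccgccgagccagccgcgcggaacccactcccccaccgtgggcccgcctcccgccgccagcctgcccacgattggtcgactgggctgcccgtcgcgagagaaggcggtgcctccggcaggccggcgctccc
CEBPA: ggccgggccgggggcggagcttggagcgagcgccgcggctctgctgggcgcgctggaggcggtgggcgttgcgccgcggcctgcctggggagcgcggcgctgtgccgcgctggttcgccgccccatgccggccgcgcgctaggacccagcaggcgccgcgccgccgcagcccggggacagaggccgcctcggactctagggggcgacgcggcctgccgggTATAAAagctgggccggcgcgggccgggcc
TEF: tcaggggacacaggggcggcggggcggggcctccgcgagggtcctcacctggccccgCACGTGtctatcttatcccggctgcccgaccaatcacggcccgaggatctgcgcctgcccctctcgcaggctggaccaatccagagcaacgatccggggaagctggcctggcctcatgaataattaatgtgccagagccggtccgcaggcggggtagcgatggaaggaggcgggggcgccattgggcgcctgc

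Shorter stretches are shown where the other matches lie. CEBPB has a TATA box from 29 to 24 bases before its MANE Select start (chr20:50190789-50190818, plus strand), close to the place of that of CEBPA (30 to 25 bases before). The other RefSeq start of NFIL3 has a C/EBP box in reverse orientation from 35 to 28 bases before it (chr9:91424643-91424672, minus strand). The other start of TEF has a second E-box, 195 to 190 bases before it (chr22:41367248-41367277, plus strand).
CEBPB: acgggccgccctTATAAAtaaccgggctca
NFIL3, other start: tcccagtcgtgTTACGCAAcaactttgcag
TEF, other start: gcgcgacagctcCACGTGctgcagctggcg

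HLF had the letters of a TATA box too, but 244 to 239 bases before its start. In all, 6 of the 12 windows had a match, and no window had a D-box, CRE, AP-1 site or CArG box. Among 35116 gene starts, the TATA letters occur in 10.7%, the C/EBP box in 9.05%, the AP-1 site in 6.57%, the E-box in 6.34%, the D-box in 1.98%, the CRE in 1.65% and the CArG box in 1.16%. Among the 14867 starts of genes with a mean of 10 or more, as all 8 genes have, the shares were 5.92% for TATA, 6.34% for the C/EBP box, 4.40% for the AP-1 site, 8.15% for the E-box, 1.12% for the D-box, 2.50% for the CRE and 1.09% for the CArG box. A match describes letters only, and a missing match says nothing of the factor. All 12 windows had more CpG than the median of 11 over all starts, whether the gene fell, rose or did not pass. The CpG median for starts of genes with a mean of 10 or more was not computed. Before the MANE Select starts there were 44 CpG in 250 bases for NFIL3, 41 for CEBPA, 38 for CEBPB, 32 for CEBPG, 25 each for DBP and HLF, and 22 for TEF, and the other starts had 13 (HLF) to 35 (CEBPG).

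The relatives and bZIP partners of the family were mostly lower. Of 11 such genes, 7 were lower past the threshold, 1 was higher and 3 did not pass. Over all tested genes, 22.5% were lower and 24.3% were higher. ATF3 was left at 31.8% of vehicle and DDIT3 (CHOP), a C/EBP relative that blocks C/EBP binding to its usual sites, at 33.4% (95% interval 30.7% to 36.3%, adjusted p = 2.8e-145, DESeq2 Wald test). ATF4, the stress factor that pairs with C/EBPγ and C/EBPβ, was left at 70.4% (65.4% to 75.8%). BATF3 was at 42.6%, FOS at 56.7%, JUN at 76.4% and CREB1 at 83.2%. The study had already reported by qRT-PCR that ATF3, BATF3 and FOS need WDR5, with little effect on JUN. The count for this list is therefore no independent support. ATF5 rose to 126% (112% to 142%). ATF2, at 91.5%, and CEBPZ, at 98.4% (90.7% to 107%), did not pass. CEBPZ is a CCAAT-binding protein that shares the name but is no bZIP factor. CEBPE, a granulocyte gene, had a mean normalized count of 2.77 and an interval from 20.6% to 450%, which shows nothing about its direction.

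Genes that act upstream of C/EBP went both ways. Of 20 genes, 9 were lower, 4 were higher and 7 did not pass, with a median log2 fold change of -0.12. The shares over all tested genes were 22.5% lower and 24.3% higher. The largest falls were those of IL6, the cytokine that induces CEBPB and CEBPD (11.3% of vehicle), of NFKB1 (60.9%) and of OSMR, the oncostatin M receptor (73.2%, 95% interval 68.1% to 78.7%). STAT3, which carries the IL-6 signal to the CEBPD promoter, was at 105% and did not pass. TRIB2, a pseudokinase that targets C/EBPα for degradation, had the largest rise, to 192% of vehicle (171% to 215%, adjusted p = 2.3e-26, DESeq2), and its relative TRIB1 was lower at 89.0% (82.5% to 95.9%). COP1, the ubiquitin ligase that works with TRIB proteins and is listed as RFWD2, was at 114% (104% to 125%), and GSK3B, a kinase that phosphorylates C/EBPα and C/EBPβ, was at 128% (117% to 139%). Protein levels of C/EBP were not measured here.

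Many known C/EBP target genes were barely detected in these cells. Of 27 listed genes, 23 are in the table, 11 of these have a mean normalized count under 10, and 17 were tested. Of those 17, 8 were lower, 1 was higher and 8 did not pass, beside 22.5% lower and 24.3% higher over all tested genes. The inflammatory targets PTGS2 (11.2% of vehicle), IL6 and CXCL8 (17.4%) had the largest falls. MMP1 (48.1%), PPARG (59.7%), SCD (65.5%) and complement factor B (CFB, 65.8%) were lower as well, as was MMP3 at a mean normalized count of 23.2. CHI3L1 was higher, at 193% (95% interval 171% to 217%). The acute phase genes SAA1, SAA2, ORM1, ORM2, HP and LCN2 all had a mean normalized count under 2, so nothing can be said of their change. CCL2, at 131% (101% to 170%), and C3, at 130% (102% to 166%), did not pass after adjustment.

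The clock genes, which drive DBP, TEF and HLF through E-boxes and NFIL3 through REV-ERB and ROR proteins, were split. Of 22 genes, 20 were tested, with 7 lower, 3 higher and 10 not past the threshold. The shares over all tested genes were 22.5% lower and 24.3% higher. The nuclear receptors of the clock were all lower where they were expressed. NR1D1 (REV-ERBα), which represses NFIL3, was left at 50.8% of vehicle (95% interval 43.5% to 59.3%, adjusted p = 1.5e-16, DESeq2 Wald test), NR1D2 at 67.7% (61.4% to 74.5%) and RORA at 65.4% (54.7% to 78.2%). ARNTL (BMAL1) was left at 68.8% (61.2% to 77.4%), whereas its paralog ARNTL2 rose to 125% (115% to 137%). CLOCK, at 104% (85.2% to 126%), did not pass. The repressors of E-boxes BHLHE40 and BHLHE41 rose to 114% and 140%. CRY1 and PER1 were lower, at 75.9% and 79.5%, and PER2, PER3 and CRY2 did not pass. The vehicle and DOX cultures are not labelled with a time of harvest, and its part in the clock genes was not tested.

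Of 15 genes listed as targets of PAR factors, 13 are in the table and 10 were tested. Of these, 4 were lower (NR1D1, RORA, PER1 and CYP7A1, the last at a mean normalized count of 30.9), 2 were higher and 4 did not pass. Over all tested genes, 22.5% were lower and 24.3% were higher. PDXK, the pyridoxal kinase that is a classical target of DBP, TEF and HLF, rose to 130% of vehicle (95% interval 122% to 139%, adjusted p = 3.3e-13, DESeq2 Wald test), and the esterase gene CES2 rose to 113% (103% to 124%). POR, at 111% (101% to 121%), and ALAS1, at 99.4% (91.6% to 108%), did not pass. NR1D1, RORA, PER1, PER2 and PER3 are members of both this and the clock list. IL6 is in both the upstream and the C/EBP target list, and CREB1 in both the list of relatives and partners and the upstream list.

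**Figure D5:**
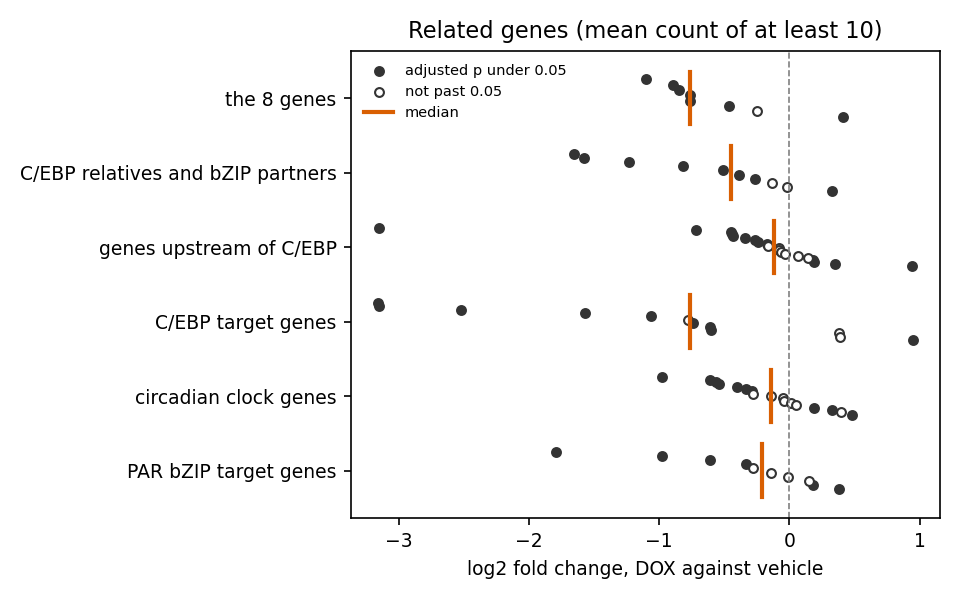
Change (log2, DOX over vehicle) of the 8 genes and 5 lists of related genes whose mean was 10 or more normalized counts, with filled points past an adjusted p of 0.05, open points not past it, and a bar at the median of each row. The medians are -0.76 for the 8 genes, -0.45 for the relatives and partners, -0.12 for the upstream genes, -0.76 for the C/EBP targets, -0.14 for the clock genes and -0.21 for the PAR targets, and that of all genes with such a mean is 0.00.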

How the data were processed

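The data are RNA-seq of 3 vehicle and 3 DOX cultures of BT-549 cells with the inducible shRNA. The authors prepared stranded poly(A) libraries, aligned reads to GRCh38 with STAR and compared gene counts with DESeq2, and the counter and versions are not given in the sources used here. The deposited table holds no column of a single library. As a signal value, the authors deposited for each gene the normalized count averaged over 6 libraries. The log2 fold change and its standard error were deposited by the authors on the log2 scale, together with the Wald statistic, a score computed by the authors, and its p-value. The adjusted p-value is empty for 3838 of 19792 genes, which were not tested here.

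The design foresaw a count test, or the Wald test where only the comparison was given, and the latter applied. P-values and Benjamini-Hochberg values (15954 genes) were recomputed from the deposited estimates. The Wald statistics and adjusted p-values equalled the listed ones to rounding. The 95% intervals (normal) were computed from the same estimates, and no listed intervals exist to compare them with. Group levels were derived as the values whose mean and ratio are those deposited. The split of the standard error assumed size factors near 1. Lengths and positions came from GENCODE 44. The members and lists were chosen with earlier results of these data known, so they give no independent support. Named were the 8 genes, WDR5, the partners, the neighbours and at most 3 called genes per direction of each other list with a mean of at least 50. Others named, such as members not past the threshold, were chosen after their values were seen. Genes of like pattern were not sought, since 1 comparison has none over samples. The scripts were tested on simulated data. Computation used pandas 2.3.3 and scipy 1.17.1 in Python 3.11.15 (numpy 2.4.6), and plots used matplotlib 3.10.9. The alternatives were other filters, adjustments and null hypotheses, centring, shrinkage, and a correction for GC content and length.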

Additional observations from a re-analysis of the deposited data

How the results depend on the processing

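The direction of each of the 8 genes was the same under all 9 alternatives. Only centring and the correction for GC content and length could change a direction, since the others keep the sign of the estimate. In the 8 alternatives that have a test, 49 of 64 results kept their side of the threshold. Under the Benjamini-Yekutieli and the Bonferroni adjustment, HLF was lost, leaving 5 lower genes of 6, and the count of higher genes went from 1 to 0. HLF had adjusted p-values of 0.0915 and 1, and TEF of 0.154 and 1. Tested against a change of at most 0.5 on the log2 scale, 3 genes were lower (NFIL3, CEBPG and CEBPB) and 0 higher, and CEBPA (log2 fold change -0.85), CEBPD (-0.46), HLF (-0.76) and TEF (0.41) did not pass. Tested against a change of at most 1, 0 were lower and 0 higher, with NFIL3 at -1.10, CEBPG at -0.89 and CEBPB at -0.76. These losses follow from the stricter tests, under which the shares over all genes were not computed. Shrinkage moved HLF most, from -0.76 to -0.56. Centring shifted all genes by 0.003, and centring or the correction for GC content and length moved no member by more than 0.10. After that correction, however, both CEBPA (-0.94) and CEBPB (-0.85) were below CEBPG (-0.84), which then no longer had the largest fall of the C/EBP genes. The counts of the lists stayed within 1.5 times under a filter on means under 10 and under centring. No paired analysis was possible because the table has no values of single libraries, so leaving out a culture and other tools were not run either. The intervals were widest for HLF, DBP and TEF, and the share of counting in the squared standard error was highest for HLF (42.6%) and CEBPA (36.9%).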
